A study of Mus musculus with 6 samples.

Results

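The Notch receptors Notch1, Notch2, Notch3 and Notch4, the ligands Jag1, Jag2, Dll1 and Dll4, and the target genes Hes1 and Hey1 were examined in obstructed mouse ureters. These 10 genes, out of 36628 gene names on the array, were taken by name, and every array probe that carries 1 of the names was kept. They had 15 probes, of which 11 were measured, meaning that all 3 arrays of 1 or both groups showed a signal well above background, and each of the 10 genes had at least 1 measured probe. The ureters came from mice of a C57BL/6N background aged 2 months and were removed 4 days after unilateral ureteral obstruction, an operation that closes the ureter on 1 side. There were 3 ureters labelled Col17a1-WT and 3 labelled Col17a1-KO, all obstructed, so that an unobstructed ureter is not part of the comparison. The labels give all mice as male except replicate 3 of the KO group, which is female. They do not say how the Col17a1 allele was made, in which cells it acts or whether littermates were used, and where nothing states separate animals, p-values measure only the spread between these samples. Whole-ureter RNA was labelled with Cy3 and hybridised to 1-colour arrays, and the comparison asks which transcripts differ with the Col17a1 label.

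Notch receptors are single-pass membrane proteins that bind Jagged or Delta-like ligands on a neighbouring cell. Binding exposes the receptor to cleavage by an ADAM protease and then by gamma-secretase, and the released intracellular domain enters the nucleus, joins the DNA-binding protein RBPJ and a Mastermind coactivator, and switches on genes such as those of the Hes and Hey repressors. In layered epithelia the pathway helps to set the balance between basal and differentiating cells. In vessel walls Dll4 and Notch4 are known from endothelium and Notch3 from the smooth muscle and pericytes around it.

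Notch1 was the only member with more than 1 measured probe, and its probes are shown because they gave opposite differences. Both lie on the minus strand of chromosome 2 (build mm9, as the array files give it), 34609 bases apart. They read from 5′ to 3′.
Notch1 probe for NM_008714, chr2:26319440-26319499: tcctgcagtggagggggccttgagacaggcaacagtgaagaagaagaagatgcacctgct
Notch1 probe for ENSMUST00000131393.1, chr2:26354049-26354108: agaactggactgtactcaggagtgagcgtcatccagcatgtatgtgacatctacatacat
The first matches the RefSeq messenger RNA and is called the RefSeq probe here. The second is listed for an Ensembl transcript and a cDNA clone and not for the RefSeq messenger RNA. It lies nearer to the 5′ end of the gene.

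Across the whole array, 0 of 35069 measured probes passed an adjusted p of 0.05 (limma, Benjamini-Hochberg; 0%), and the lowest adjusted p was 0.287, while 3247 probes (9.26%) had an unadjusted p under 0.05. Each gene is described by its brightest measured probe, which gave 22266 genes. Values are log2 processed signals after subtraction of the array's 75th percentile, so that 0 marks that percentile, and levels of different probes cannot be set against each other. Col17a1 itself had values of -2.33, -0.80 and -0.39 in WT and 0.50, 0.53 and 0.40 in the KO-labelled ureters, a difference of 1.65 ± 0.48 (limma, SE, adjusted p = 0.45) that was 1.07 without WT replicate 1. Its second measured probe was also higher in all KO-labelled ureters, by 1.10 ± 0.19 (adjusted p = 0.378). This goes against the label, but a probe outside the altered part of the gene would not test the label. The group is therefore called KO-labelled. WT replicate 2 also stood apart, with a kidney marker value of 1.46 against -0.44 to -0.19 on the other 5 arrays. All 12 urothelium, 8 smooth muscle and 10 endothelium markers were measured, as the labelled tissue would hold. In bulk tissue, fewer cells of a type and less RNA per cell cannot be told apart.

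All 4 ligands had higher mean values in the KO-labelled ureters, by 0.18 to 0.42 in log2, and none passed the adjusted threshold. Dll1, a Delta-like ligand (probe at chr17:15504623-15504682), had values of -2.38, -2.38 and -2.38 in WT and -2.07, -2.13 and -1.85 in the KO-labelled ureters. The groups did not overlap, and the WT values lay unusually close together, with an SD of 0.0016. The difference was 0.37 ± 0.12 (SE), or 1.29-fold, with an unadjusted p of 0.018 and an adjusted p of 0.475 (limma). With normexp background it was 0.11 (unadjusted p = 0.154). Jag2, a Jagged ligand found in stratified epithelia among other tissues (chr12:114146887-114146946), had values of -1.42, -1.83 and -1.78 in WT and -1.06, -1.27 and -1.46 in the KO-labelled ureters. WT replicate 1 lay just above KO replicate 3, so the groups overlapped by a single array. The difference was 0.42 ± 0.17, or 1.33-fold (limma, unadjusted p = 0.043, adjusted p = 0.526), and 0.20 with normexp background.

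Jag1 (chr2:136907433-136907492), the Jagged ligand with known roles in vessel walls and many epithelia, had values of 0.80, 0.63 and 0.86 in WT and 0.89, 1.26 and 0.75 in the KO-labelled ureters. KO replicate 2 stood clearly above the WT range and KO replicate 1 just above it. The mean difference of 0.21 ± 0.16 (limma, adjusted p = 0.72) was 0.057 without KO replicate 2. Dll4 (chr2:119160779-119160838), the ligand of sprouting endothelium, ran from -3.31 to -2.87 in WT and was -3.01, -2.38 and -3.21 in the KO-labelled ureters. KO replicate 2 was again the highest array. Without it the difference turned from 0.18 ± 0.24 (adjusted p = 0.839) to -0.064. A second Dll1 probe stayed at background on all 6 arrays.

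**Figure D1:**
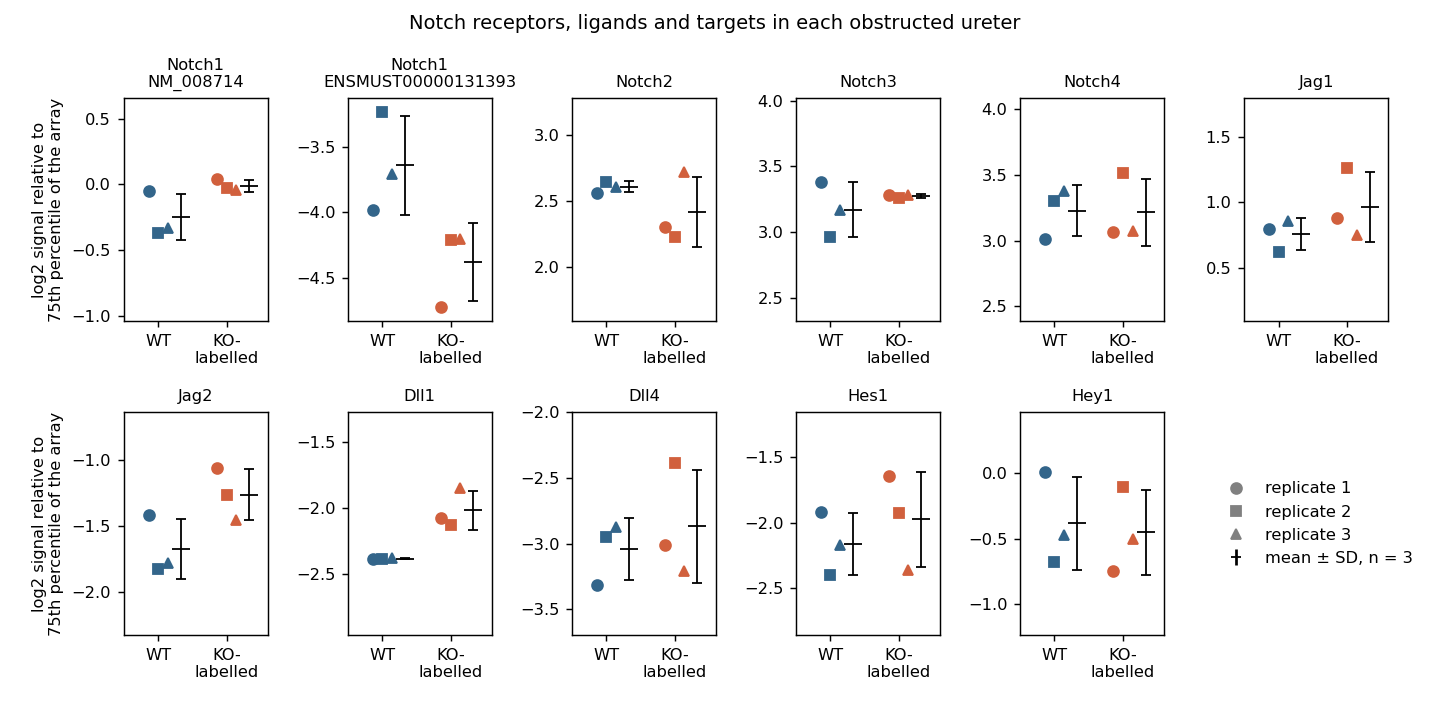
Log2 signal relative to the array's 75th percentile for the 11 measured probes of the 10 members, 1 panel per probe, with each ureter as a point (circle, square and triangle for replicates 1, 2 and 3) and the mean ± SD of 3 beside it; all panels span the same height. WT and KO-labelled points separate for Dll1 and for both Notch1 probes, in opposite directions for the latter, and mix in the other panels.

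Among the receptors the differences had both signs and 0 of 4 passed the threshold. At the RefSeq probe printed above, Notch1 had values of -0.05, -0.37 and -0.33 in WT and 0.04, -0.03 and -0.04 in the KO-labelled ureters. The KO-labelled values lay above the WT values by only 0.0029 at the closest pair, WT replicate 1 and KO replicate 3. The difference was 0.24 ± 0.12, or 1.18-fold (limma, unadjusted p = 0.103, adjusted p = 0.6). The other probe had values of -3.98, -3.24 and -3.71 in WT and -4.72, -4.21 and -4.20 in the KO-labelled ureters, again without overlap but the other way round. It differed by -0.74 ± 0.24 (limma, unadjusted p = 0.019, adjusted p = 0.481).

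Both Notch1 probes had signals well above background in all 6 ureters. Within each array, the RefSeq probe minus the other gave 3.93, 2.87 and 3.38 in WT and 4.76, 4.18 and 4.16 in the KO-labelled ureters. This gap was wider by 0.97 in the KO-labelled group, and its separation by group follows from the opposite separations of the 2 probes, so it has no test of its own. With another background correction (normexp with an offset of 50) it was wider by 0.31, and the second probe differed by only -0.13 (unadjusted p = 0.119). A mean of both probes gave a difference of -0.25 for the gene, the opposite sign to its brightest probe.

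**Figure D2:**
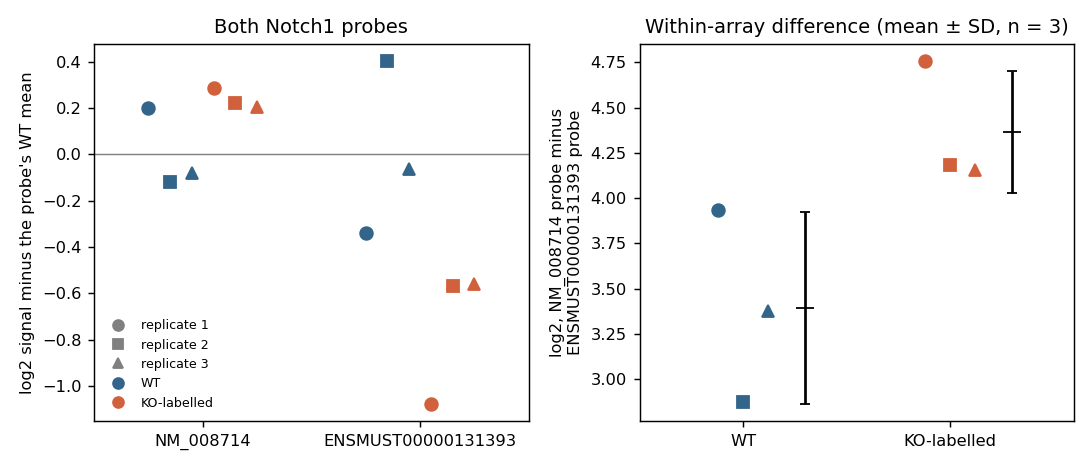
Left, log2 signal of both Notch1 probes minus the probe's own WT mean in each ureter; right, the within-array log2 difference between the probes, with mean ± SD of 3 arrays. The KO-labelled ureters lie above WT at the RefSeq probe and below WT at the other, and the within-array difference is 2.87 to 3.93 in WT and 4.16 to 4.76 in the KO-labelled ureters.

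Notch2, a receptor expressed in many cell types (chr3:97953914-97953973), had values of 2.56, 2.65 and 2.61 in WT and 2.30, 2.22 and 2.72 in the KO-labelled ureters. KO replicates 1 and 2 lay below all WT arrays and KO replicate 3, the female, above them. The difference was -0.19 ± 0.15 (limma, adjusted p = 0.724) and ranged from -0.095 without KO replicate 2 to -0.34 without KO replicate 3. Notch3, the receptor of vascular smooth muscle and pericytes (chr17:32257888-32257947), was 3.38, 2.96 and 3.17 in WT and 3.28, 3.26 and 3.28 in the KO-labelled ureters. Its KO-labelled values were nearly equal and lay inside the WT range, with a difference of 0.10 ± 0.13 (adjusted p = 0.828) that was gone without WT replicate 2 (-0.00015).

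Notch4 (chr17:34725384-34725442), known from endothelium, ranged from 3.01 to 3.38 in WT and from 3.06 to 3.51 in the KO-labelled ureters. The ranges overlapped almost entirely, and the difference was -0.013 ± 0.17 (limma, adjusted p = 0.987). Of its other probes, 1 was above background on 4 of the 6 arrays and 1, placed at chr17:35104770-35104829 and so far from the rest of the gene, on 0. A second Notch2 probe was above background in 1 WT ureter only.

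**Figure D3:**
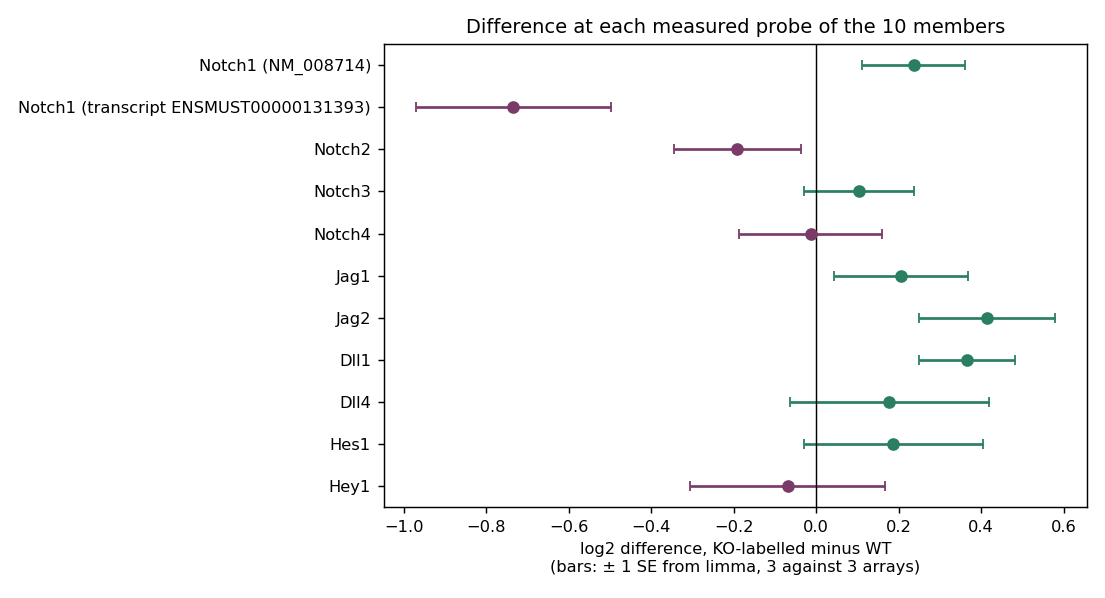
Log2 difference, KO-labelled minus WT, at each of the 11 measured probes, with bars of ± 1 SE from limma (3 against 3 arrays). The 4 ligands lie between 0.18 and 0.42, the receptors on both sides of 0, and the Notch1 probes at 0.24 and -0.74.

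The 2 target genes did not separate the groups. Hes1, a repressor that holds progenitor cells undifferentiated in many tissues (chr16:30067820-30067879), had values of -1.92, -2.40 and -2.17 in WT and -1.65, -1.92 and -2.36 in the KO-labelled ureters. The lowest KO-labelled array, replicate 3, was close to the lowest WT array, replicate 2. The difference was 0.19 ± 0.22 (limma, adjusted p = 0.808) and lay between 0.022 and 0.38 when single arrays were left out. Hey1, a related repressor active in vessels (chr3:8663432-8663491), had values of 0.00, -0.68 and -0.47 in WT and -0.74, -0.11 and -0.51 in the KO-labelled ureters. Its difference of -0.069 ± 0.24 (adjusted p = 0.945) was smaller than the SD in either group and turned to 0.12 without WT replicate 1.

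As a list, 7 of the 10 members had a positive difference and 3 a negative one, with a median of 0.18, while over all genes tested the median was -0.00087 and 49.8% were positive. At an unadjusted p under 0.05 there were 2 members (Dll1 and Jag2), against 8.95% of all genes. Both were higher and 0 were lower, against 4.32% and 4.63% of all genes. Groups did not overlap, with the KO-labelled values on top, for Dll1 and Notch1, and the same held for 7.28% of all genes. For 0 members they lay wholly below at the brightest probe, against 8.12% of all genes. The second Notch1 probe, which these counts leave out, lay wholly below. The median rested partly on single arrays: it was 0.10 without WT replicate 2, 0.085 without KO replicate 2 and 0.27 without KO replicate 3, and 0.084 with normexp background. The count at an unadjusted p under 0.05 was 0 when WT replicate 3 was left out, was 3 when WT replicate 1 was left out, and was 1 without WT replicate 2, KO replicate 1 or KO replicate 2.

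Several members had their highest or lowest value in the same ureters as a marker list of a cell type, and the part of these lists in the members' values was not tested. A marker value is the mean of the list's log2 values after each gene was centred on its mean over the 6 arrays. The endothelium list was 0.41 in KO replicate 2 and between -0.19 and 0.07 elsewhere. In that ureter Dll4, Notch4 and Jag1 also had their highest values. Hey1 was instead highest in WT replicate 1, where the endothelium list had its lowest value, -0.19. The summed linear level of the 10 endothelium markers was 66.8 to 87.3 in WT and 68.6 to 102.3 in the KO-labelled ureters.

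Jag2 was highest in KO replicates 1 and 2 and lowest in WT replicates 2 and 3, the same arrays that stood at the top (0.67 and 0.46) and bottom (-0.73 and -0.32) of the urothelium list. The 12 urothelium markers summed to 175 to 244 in WT and to 295 to 442 in the KO-labelled ureters, without overlap. By gene, 11 of the 12 had a positive difference. Trp63, named after its values were seen, was lower without overlap at its brightest probe (-0.32), and its 4 measured probes gave -0.32 to 0.88. KO replicates 1 and 2 also led the smooth muscle list with 0.64 and 0.39, and WT replicate 2 had the lowest value of that list, -0.83, and of Notch3. But Notch3 was highest in WT replicate 1 (3.38), where that list was 0.15. In the KO-labelled ureters Notch3 stayed at 3.26 to 3.28, while the list ran from -0.22 to 0.64. The 8 smooth muscle markers summed to 308 to 498 in WT and 416 to 624 in the KO-labelled ureters. Notch2 was lowest in KO replicates 1 and 2, where the macrophage list was -0.35 and -0.52, against 0.00 in KO replicate 3 and 0.13 to 0.44 in WT. The 8 macrophage markers summed to 290 to 352 in WT and 176 to 266 in the KO-labelled ureters. Of the 8 kidney markers 4 were not measured, among them Umod, which was named after its values were seen. The measured 4 summed to 1.16 in WT replicate 2 and to 0.281 to 0.334 on the other arrays. The neutrophil list was higher for 5 of 6 genes in the KO-labelled ureters, but its sums overlapped (126 to 290 in WT and 140 to 290 in the KO-labelled ureters) and its mean difference of 1.12 was 0.32 with normexp background. The mesothelium list was higher for 4 of 4 measured genes. Its sums were 2.23 to 3.56 in WT and 4.38 to 5.02 in the KO-labelled ureters. Of the 4 genes, Upk3b is also in the urothelium list, Wt1 differed by 0.0094, and only Msln separated the groups. These 3 were named after their values were seen. The fibroblast list had 3 each way.

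**Figure D4:**
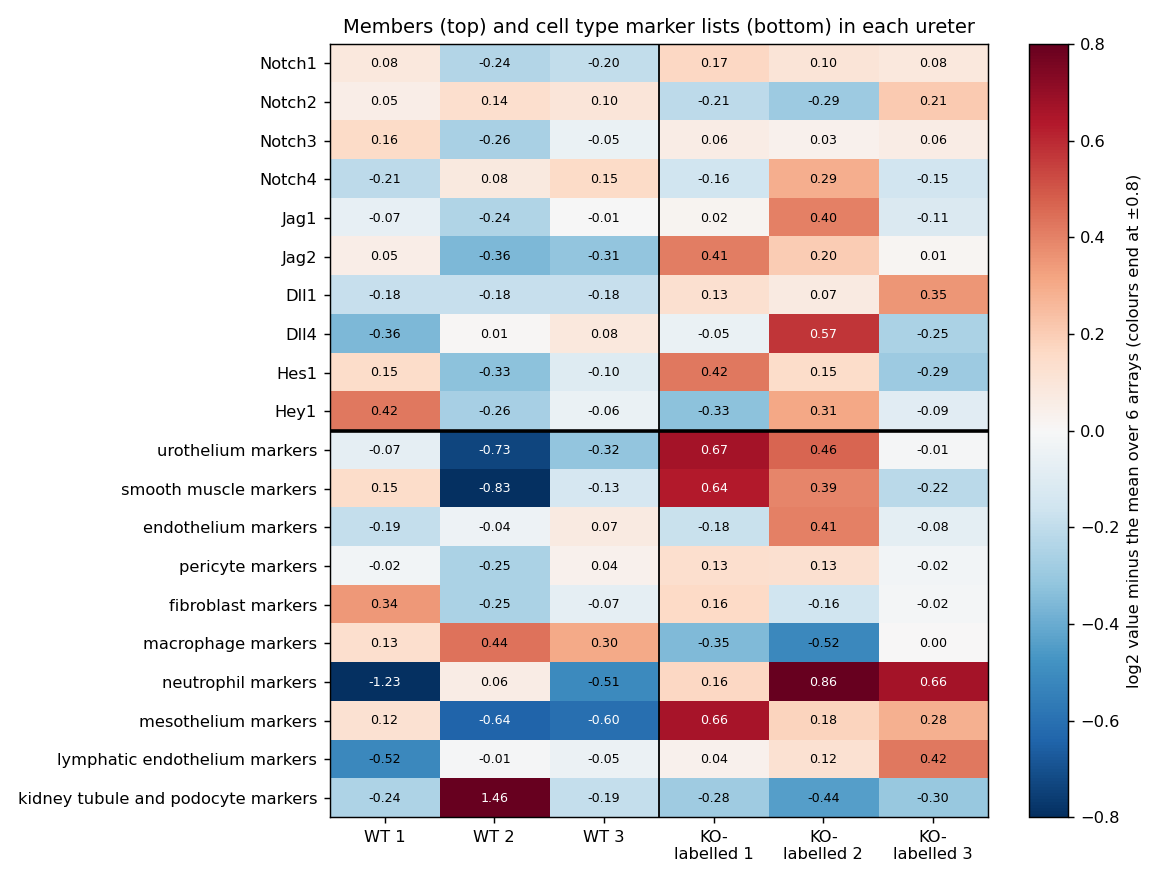
Log2 value minus the mean over 6 arrays for each member at its brightest probe (top) and for each cell type marker list as the mean of its genes (bottom), 1 column per ureter; colours end at ±0.8. KO replicate 2 is highest for Dll4, Jag1, Notch4 and the endothelium list, and WT replicate 2 is lowest for Jag2, Notch1, Notch3 and the urothelium and smooth muscle lists.

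The rest of the pathway was read from 6 lists by role, with 56 of 60 genes measured, of which 30 had a positive and 26 a negative difference (median 0.043). None passed the adjusted threshold in either direction. At an unadjusted p under 0.05 there were 3 higher and 3 lower, 6 of 56 genes, a share near the 8.95% of all genes (4.32% higher and 4.63% lower). The 6 became 10 without WT replicate 1 and 3 without KO replicate 2. Among regulators of ligand endocytosis and receptor turnover, with 6 positive and 7 negative differences of 13, Neurl1a, a ubiquitin ligase that acts on Notch ligands, had the lowest p of all pathway genes. Its values were 0.41, 0.25 and 0.45 in WT and 1.21, 1.12 and 1.27 in the KO-labelled ureters. The groups were far apart, with a difference of 0.83 ± 0.11, or 1.77-fold (limma, unadjusted p = 0.00021, adjusted p = 0.359). Neurl1a lies on chromosome 19, the chromosome of Col17a1, and whether that location bears on its difference was not tested. At the other end of the list, Mib2, another ligase for the ligands, differed by -0.34 ± 0.18 (adjusted p = 0.598), or by -0.19 without WT replicate 1. The other measured Mib2 probes gave -0.38 and 0.089.

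Among other target genes 9 of 10 measured genes had positive differences (median 0.24), against 49.8% of all genes tested. The mean of this list, with each gene centred over the 6 arrays, was -0.27, -0.06 and -0.05 in WT. In the KO-labelled ureters it was -0.03, 0.32 and 0.09, so that WT replicate 1 was the lowest array. Nrarp, a small ankyrin-repeat protein that the pathway induces and that damps it in return, had values of -2.02, -2.28 and -2.10 in WT and -1.46, -1.11 and -1.74 in the KO-labelled ureters. The groups did not overlap, and the difference was 0.70 ± 0.18, or 1.62-fold (limma, unadjusted p = 0.0074, adjusted p = 0.445). With normexp background it was 0.30. Id1, a helix-loop-helix inhibitor better known as a BMP target, differed by 0.52 ± 0.21 (adjusted p = 0.536). It was named after its values were seen, as were Adam17, Aph1b, Hes3 and Hes7. Heyl, a Hey relative of vascular smooth muscle, ran from -0.45 to 0.13 in WT and from -0.54 to 0.72 in the KO-labelled ureters, where its highest value belonged to KO replicate 2, and differed by 0.089 ± 0.34 (adjusted p = 0.952). Hes6, which in mouse counteracts Hes1, had the lowest difference, -0.095 ± 0.10 (adjusted p = 0.79), which was -0.054 without KO replicate 1. Hes5, Hey2 and Hes3 were not measured, with Hes5 above background on 2 of 6 arrays and the others on 0.

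Genes of receptor cleavage had 3 positive and 7 negative differences (median -0.12). Aph1c, a gamma-secretase subunit, had values of 1.31, 0.76 and 0.58 in WT and -0.14, -0.40 and 0.30 in the KO-labelled ureters. These did not overlap, with a difference of -0.96 ± 0.26, or 0.512-fold (limma, unadjusted p = 0.0081, adjusted p = 0.45). Its close relative Aph1b differed by -0.049 at its brighter probe and by -1.17 ± 0.42 (adjusted p = 0.503) at a dimmer one, and how far the probes tell the genes apart was not tested. Adam17, a protease that can cut the receptor, differed by -0.37 ± 0.13 (adjusted p = 0.499), and its 3 probes gave -0.49 to -0.37. Adam10, the main protease of this step, had the highest difference of the list at 0.14 ± 0.13 (adjusted p = 0.771), which became 0.031 when WT replicate 1 was omitted and 0.086 when KO replicate 2 was.

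In the nuclear complex 6 genes had positive and 6 negative differences. Rbpj, the factor that carries the receptor domain to DNA, had values of 1.47, 2.34 and 2.29 in WT and 1.73, 1.65 and 2.21 in the KO-labelled ureters, which overlapped (-0.17 ± 0.28; limma, adjusted p = 0.87). Its difference ran from -0.45 without WT replicate 1 to -0.017 without WT replicate 2, and was -0.043 without WT replicate 3, -0.11 and -0.064 without KO replicates 1 and 2, and -0.35 without KO replicate 3. The other measured Rbpj probes gave -0.40 and -0.46. Crebbp, a histone acetyltransferase, differed by -0.27 ± 0.11 (adjusted p = 0.53) and the coactivator Maml3 by 0.34 ± 0.16 (adjusted p = 0.575), which normexp background put at 0.16 and omission of WT replicate 1 at 0.22. The other measured Maml3 probe gave -0.026, and the other Crebbp probes gave -0.43 and -0.027.

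The fringe enzymes, which add sugars to the receptors and so tune their choice of ligand, showed no common direction. Lfng differed by -0.37 ± 0.24 (limma, adjusted p = 0.659; -0.23 without KO replicate 1 and -0.60 without KO replicate 3), Mfng by 0.082 ± 0.16 (adjusted p = 0.897) and Rfng by -0.002 ± 0.11 (adjusted p = 0.997). Lfng was 0.20, 0.68 and 0.60 in WT and -0.15, -0.07 and 0.58 in the KO-labelled ureters, so the 2 arrays with the lowest macrophage values were also its lowest. Of the other ligands, Dlk1, a Delta-like protein without the usual receptor-binding domain, had values of 0.70, -1.52 and -1.37 in WT and 0.42, -0.57 and 1.04 in the KO-labelled ureters. The groups overlapped widely, and the difference of 1.03 ± 0.68 (adjusted p = 0.666) did not pass. Omitting WT replicate 1 gave 1.75, omitting WT replicate 2 gave 0.64 and omitting KO replicate 3 gave 0.66. Dner, a ligand known from neurons, differed by -0.023 ± 0.61 (adjusted p = 0.994).

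**Figure D5:**
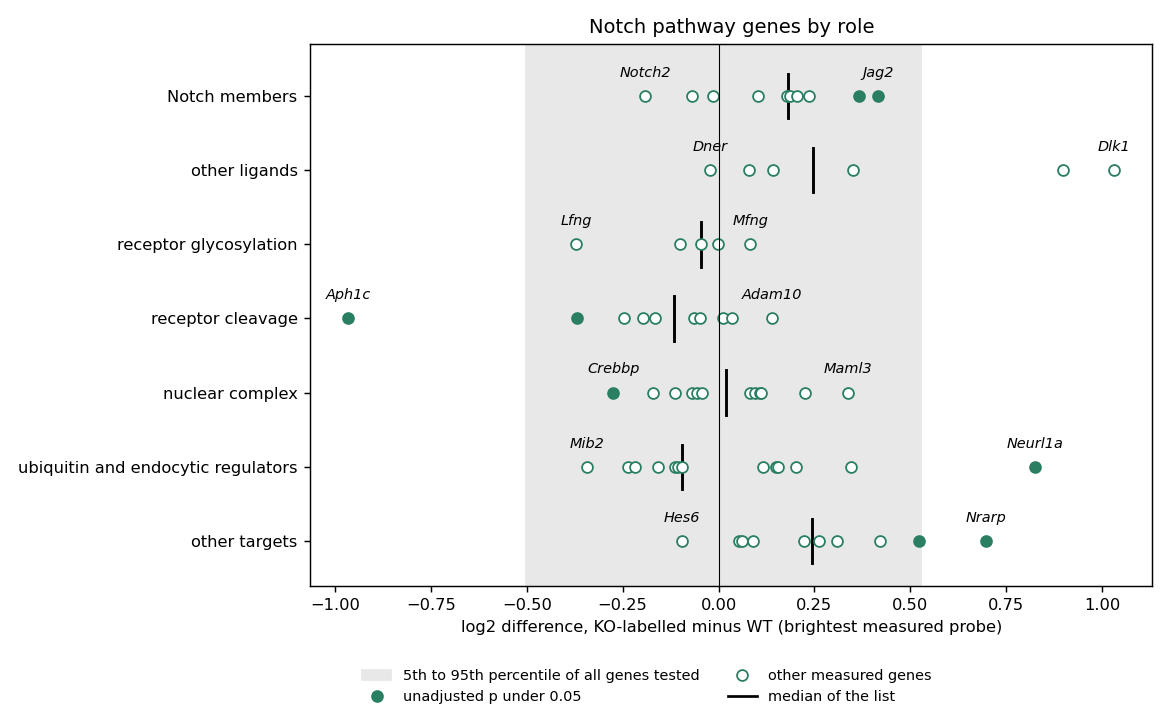
Log2 difference, KO-labelled minus WT, of each measured gene at its brightest probe, by role; filled points have an unadjusted p under 0.05, black bars mark list medians, and grey spans the central 90% (-0.50 to 0.53) of all genes tested. All members lie within the grey band, and 5 other pathway genes stand outside it, among them Aph1c at -0.96, Dlk1 at 1.03, Neurl1a at 0.83 and Nrarp at 0.70.

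The starts of the members and of the other pathway genes were searched for GTGGGAA, the strict core of the RBPJ site, on both strands. The search covered the 250 bases before each gene start (RefSeq, GRCm38.p6). The motif was present in 5.42% of all 32851 promoters listed. Of the 10 members 8 had an entry, with 0 holding the motif. Hes1 and Hey1 had none. Of the other targets, 5 of 13 had an entry, with 3 holding the motif. They are Hes5, with 2 matches, and Hes7 and Hey2, with 1 each. Over all 6 pathway lists, 41 genes had an entry and 6 held the motif, with Lfng among those outside the target list. A gene with several promoters was counted if any of them held the motif. These counts are thus of genes, while the 5.42% is a share of promoters. The promoters of Nrarp, the target with the largest difference, and of Hes5 and Hes7, which hold the motif, are printed with matches in capitals.
Nrarp, chr2:25180508-25180757, plus strand: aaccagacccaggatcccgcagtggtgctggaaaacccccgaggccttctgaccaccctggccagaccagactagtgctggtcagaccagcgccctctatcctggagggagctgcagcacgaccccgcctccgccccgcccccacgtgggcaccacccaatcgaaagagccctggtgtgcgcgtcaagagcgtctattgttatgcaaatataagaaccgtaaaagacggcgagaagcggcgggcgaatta
Hes5, chr4:154960673-154960922, plus strand: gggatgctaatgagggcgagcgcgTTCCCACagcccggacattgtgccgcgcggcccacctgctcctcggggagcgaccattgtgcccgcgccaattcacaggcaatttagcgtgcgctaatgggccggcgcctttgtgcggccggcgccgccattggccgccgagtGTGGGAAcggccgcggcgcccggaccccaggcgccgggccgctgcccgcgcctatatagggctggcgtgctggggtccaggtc
Hes7, chr11:69120203-69120452, plus strand: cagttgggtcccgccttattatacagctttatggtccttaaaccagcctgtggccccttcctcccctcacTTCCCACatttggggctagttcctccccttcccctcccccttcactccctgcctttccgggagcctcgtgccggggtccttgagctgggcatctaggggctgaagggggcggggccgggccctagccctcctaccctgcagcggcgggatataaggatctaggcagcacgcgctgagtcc
The Hes5 matches begin 226 and 83 bases before the gene start, the first on the minus and the second on the plus strand, and the Hes7 match begins 180 bases before it on the minus strand. Hes7, an oscillating repressor of somite formation, differed by 0.061 ± 0.11 (limma, adjusted p = 0.88), and Hes5 was not measured. A match is a string of letters and does not show binding.

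For the 3 members that varied most over the 6 arrays, the genes with the closest profiles were found by the root mean square difference between log2 profiles that were each centred on their mean. Among 14664 genes, Dll4 (SD over 6 arrays 0.33) was closest to Gpr4, a proton-sensing receptor, at 0.042, to Crim1 at 0.059 and to Robo4, a receptor of endothelium, at 0.071, where the median over all genes was 0.348. All 3 had their highest value in KO replicate 2. Jag2 (SD 0.30) was closest to Tmco4 at 0.032 and to Cdc42ep5 and Pdk1 at 0.045 each, where the median was 0.336. Hey1 (SD 0.30) was closest to Vav2 at 0.067, to Cgnl1, a junction protein, at 0.089 and to Dnal1 at 0.096, where the median was 0.345. With 6 arrays such likeness is a description only.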

How the data were processed

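Total RNA of 6 obstructed ureters was measured on 1-colour Agilent arrays, 1 array per ureter. Per the file headers, the deposited spot intensity values come from Agilent Feature Extraction 12.0.3.1 with spatial and multiplicative detrending switched on. The other deposited column used, per the file headers, holds 0 or 1 scores for spots well above background. All arrays lay on 1 slide with 1 scan time. Spots flagged as outliers were set to missing, spots of a probe were averaged in log2, and each array was centred on the 75th percentile of its 56605 non-control probes (143.7 to 164.9 in signal). The software called 35482 to 36568 probes of an array well above background, no spot was saturated, and the number of arrays limits the precision.

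Symbols came from RefSeq accessions for 36106 probes and from the files for 20499. KO-labelled and WT arrays were compared by limma 3.58.1 (R 4.3.3; lmFit, eBayes) on all 35069 measured probes, with Benjamini-Hochberg adjustment, and the procedure was tested on simulated data. The members, lists and tests were chosen with earlier results of these data known. The genes named are the members, the highest and lowest gene of each pathway list, the canonical targets Hes5, Hey2, Heyl and Nrarp, Rbpj and the fringe genes, and the nearest genes in profile, without predicted and sex-linked genes; genes outside this rule are marked as chosen after their values were seen.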

Additional observations from a re-analysis of the deposited data

How the results depend on the processing

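Each result was recomputed under 18 alternatives of background correction, normalisation, filter, probe choice, variance model, array weights, sex, replicate block and omitted arrays; slide could not act as a block, because all arrays shared it. The count of probes past the threshold stayed 0 except with array weights (2544), with the replicate block (1) and when single arrays were left out (0 to 1, the 1 without KO replicate 2). With array weights 3 members passed at their brightest probe, Notch1, Jag2 and Dll1 (limma, adjusted p = 0.047, 0.037 and 0.0497). The second Notch1 probe passed in the opposite direction, at -0.82 (limma, adjusted p = 0.042), where the RefSeq probe gave 0.33. Among other pathway genes 6 passed, Dlk1, Aph1c, Neurl1a, Dtx1, Nrarp and Id1 (Dtx1 was named after its values were seen). But the weights stopped before they converged and differed 38-fold between arrays. In all other alternatives 0 members passed. The median over the members was 0.084 to 0.27 and 6 to 9 members were positive. Jag1, Jag2, Dll1 and Hes1 kept a positive and Notch2 a negative difference in all 18. However, the filters, the brightest-probe choice, the variance model and the replicate block could not change a sign. They left these differences as in the comparison above. The sex covariate repeated the differences found without KO replicate 3, the only female. Differences near 0 changed sign, and so did those of Notch1 and Dll4, which were 0.24 and 0.18 in the comparison above. Notch4 was 0.015 with median centring, 0.060 with a sex covariate and 0.094 with WT replicate 2 and KO replicate 3 both left out. Notch3 was -0.0041, Dner 0.11, Heyl -0.032 and Rfng 0.0035 without those 2 arrays. Notch1 was -0.25 as the mean of its probes. Dner was 0.00031 with quantile normalisation, 0.0053 with median centring, 0.15 with a sex covariate and 1.21 with array weights. Rfng was 0.0099 with normexp background, 0.026 with median centring and 0.030 with array weights, where Heyl was -0.21. Leaving out single arrays gave -0.00015 to 0.21 for Notch3, -0.16 to 0.062 for Notch4, -0.064 to 0.35 for Dll4, -0.24 to 0.12 for Hey1, -0.57 to 0.57 for Dner, -0.26 to 0.37 for Heyl, -0.015 to 0.24 for Mfng and -0.059 to 0.068 for Rfng. The cause was not tested. Same-numbered WT and KO-labelled arrays had deviations that correlated at 0.50, -0.15 and -0.042 and only number 1 correlated best with its own, so the numbers were not taken as pairs. The replicate block changed no call of a member.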
